A study of Homo sapiens with 4 samples.

Results

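Neurons of the human enteric ganglioid that carry the deposited cholinergic identity are described here. They are the nuclei deposited as enteric neurons whose cholinergic annotation reads Cholinergic, and they were set against the enteric neurons in which the same annotation reads Other. The rule found 1740 cholinergic-annotated nuclei and 4581 other nuclei among 6321 enteric neurons with a transmitter annotation. A further 236 of all 6557 enteric neurons carried no transmitter annotation and were left out. The series holds 25306 deposited nuclei, of which 14812 carry a cell class.

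The ganglioids are suspension cultures of enteric neural crest derivatives grown from H9, an established human embryonic stem cell line, and single nuclei were profiled at stage 1. The study compared 2 control samples with 2 samples exposed to 2 µM PP121 between days 15 and 20. PP121 is a small-molecule inhibitor of receptor tyrosine kinases and phosphoinositide kinases. Replicates 1 and 2 are separate differentiations of the 1 cell line, so their spread covers culture and library but no other genetic background. The deposited metadata give day 42 for replicate 1 and day 38 for replicate 2 in both treatments, so day and replicate cannot be told apart.

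The number of cholinergic-annotated nuclei was 768 in control replicate 1, 252 in control replicate 2, 627 in PP121 replicate 1 and 93 in PP121 replicate 2. Values by sample follow that order throughout. Their UMIs (unique molecular identifiers, the molecules counted) summed to 6338059, 2319374, 5059468 and 795866 per sample, so PP121 replicate 2 is the shallowest. The median depth per nucleus was 7452, 8051.5, 7275 and 7005 UMIs in cholinergic-annotated neurons and 7230, 7664, 6682.5 and 7892.5 UMIs in other neurons. Any 2 samples shared between 0 and 8 cell barcodes. Control nuclei and PP121 nuclei carry differently named neuron subtypes (EN 1 to EN 8 and EN A to EN I), and whether the transmitter identities were called in 1 joint analysis is not given in the sources used here.

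Acetylcholine is the main excitatory transmitter of the enteric nervous system, released by excitatory motor neurons, interneurons and intrinsic sensory neurons. A cholinergic neuron takes up choline through the high-affinity transporter SLC5A7, joins it to acetyl-CoA with choline acetyltransferase (CHAT) and loads the product into vesicles through SLC18A3, the vesicular acetylcholine transporter. SLC18A3 lies within the CHAT gene, an arrangement called the cholinergic gene locus, and homeodomain factors act on such genes in several neuron types.

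The sequences just upstream of the 3 defining genes, and of SLC6A5, the best known of the coding genes that marked these neurons, are shown so that the loci behind the label and the leading signal can be read directly. Each is the 250 bases before the gene start on the plus strand, from RefSeq annotation of GRCh38.p14, with TAAT or its reverse complement ATTA, the core of many homeodomain binding sites, in capitals. The TAAT letters do not overlap another searched motif.
CHAT, chr10:49608845-49609094: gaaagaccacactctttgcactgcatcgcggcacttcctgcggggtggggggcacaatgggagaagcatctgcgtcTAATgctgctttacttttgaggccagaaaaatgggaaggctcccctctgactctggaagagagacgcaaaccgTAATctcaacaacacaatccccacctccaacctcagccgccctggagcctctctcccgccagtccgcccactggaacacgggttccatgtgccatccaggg
SLC18A3, chr10:49610060-49610309: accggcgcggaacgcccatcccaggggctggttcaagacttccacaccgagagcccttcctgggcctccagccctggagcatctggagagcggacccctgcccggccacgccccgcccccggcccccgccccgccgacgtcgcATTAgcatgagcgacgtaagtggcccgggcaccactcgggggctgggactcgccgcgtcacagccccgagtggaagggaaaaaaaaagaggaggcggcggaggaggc
SLC5A7, chr2:107986274-107986523: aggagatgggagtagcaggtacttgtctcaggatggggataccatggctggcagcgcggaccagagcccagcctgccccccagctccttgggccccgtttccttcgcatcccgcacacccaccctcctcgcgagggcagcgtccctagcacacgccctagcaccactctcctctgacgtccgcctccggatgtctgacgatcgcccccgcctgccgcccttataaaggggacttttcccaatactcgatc
SLC6A5, chr11:20599358-20599607: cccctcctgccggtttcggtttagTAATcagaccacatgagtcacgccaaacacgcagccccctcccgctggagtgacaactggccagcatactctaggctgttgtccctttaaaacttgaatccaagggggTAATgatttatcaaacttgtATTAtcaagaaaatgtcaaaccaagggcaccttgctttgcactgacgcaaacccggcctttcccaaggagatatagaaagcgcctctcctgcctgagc
The window of CHAT (the first of its 3 annotated starts) holds 2 matches, that of SLC18A3 holds 1, that of SLC5A7 holds 0 and that of SLC6A5 holds 3. At least 1 match occurs in 47.4% of all 35116 such windows, so these counts describe the letters alone. CHAT spans 49609095 to 49667942 on chromosome 10 and SLC18A3 spans 49610310 to 49612720 inside it on the same strand, so nuclear reads over that stretch cannot be assigned to either gene with certainty.

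The label was first checked against the 3 defining genes. CHAT fitted it, SLC18A3 was barely detectable and SLC5A7 did not mark these neurons. These genes are presumed to have been used in the annotation, so their values are a description. At least 1 CHAT UMI was found in 205 of 768 nuclei (26.7%), 93 of 252 (36.9%), 159 of 627 (25.4%) and 27 of 93 (29.0%) of cholinergic-annotated neurons. In other neurons the shares were 47 of 1517 (3.1%), 12 of 982 (1.22%), 7 of 1260 (0.556%) and 5 of 822 (0.608%). The ranges do not overlap, and most annotated nuclei nevertheless had no CHAT UMI, since 484 of 1740 (27.8%) had one. Looked at the other way, 81.3%, 88.6%, 95.8% and 84.4% of neurons with a CHAT UMI carried the identity.

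Nuclei were thinned to 2000 UMIs each to remove depth from this check, which left out 4 cholinergic-annotated and 16 other neurons. CHAT was then detected in 171 of 1736 cholinergic-annotated nuclei (9.85%, 95% exact interval 8.49 to 11.3) and in 18 of 4565 other neurons (0.394%). Mesenchymal nuclei, which should lack the gene, gave 0 of 898, which allows a share of up to 0.334%. The CHAT level in summed nuclei was 47.7, 72.0, 52.2 and 57.7 CPM (UMIs scaled to a sample total of 1000000) in cholinergic-annotated neurons. It was 4.54, 1.83, 0.997 and 1.01 CPM in other neurons, a difference of 4.59 on the log2 scale. Intervals given here cover counting error only.

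SLC18A3 had 20, 4, 15 and 4 UMIs in all cholinergic-annotated nuclei of each sample and 2, 4, 3 and 1 UMIs in the more numerous other neurons. The levels of 3.14, 1.76, 3.07 and 5.37 CPM lay above the 0.149 to 0.459 CPM of other neurons in every sample, at counts too low for use in single nuclei. SLC5A7 behaved differently. Its UMIs numbered 24, 110, 15 and 10 in cholinergic-annotated neurons, from 2, 8, 5 and 3 nuclei, and 57, 114, 75 and 77 in other neurons, from 31, 36, 34 and 23 nuclei. At 2000 UMIs it was detected in 0.346% of cholinergic-annotated neurons, 1.25% of other neurons and 0.557% of mesenchymal nuclei, so the annotated neurons were not above the background of a class that should lack the gene.

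The SLC5A7 signal came from a handful of nuclei. A set of 8 cholinergic-annotated nuclei with at least 5 SLC5A7 UMIs each held 142 of the 159 UMIs (89.3%). Of these 8 nuclei 7 had a CHAT UMI, 4 had a UMI of ISL1, a homeodomain factor of motor neurons, and 0 had a UMI of GAD2, the synaptic GABA-synthesizing enzyme. In other neurons 15 such nuclei held 142 of 323 SLC5A7 UMIs (44.0%). Of these 15 nuclei 0 had a CHAT UMI, 2 had an ISL1 UMI and 0 had a GAD2 UMI. CHAT is a presumed gene of the label, so its absence there was largely set by the grouping. The cut of 5 UMIs was chosen after the values were seen, and no test was run on these nuclei.

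**Figure D1:**
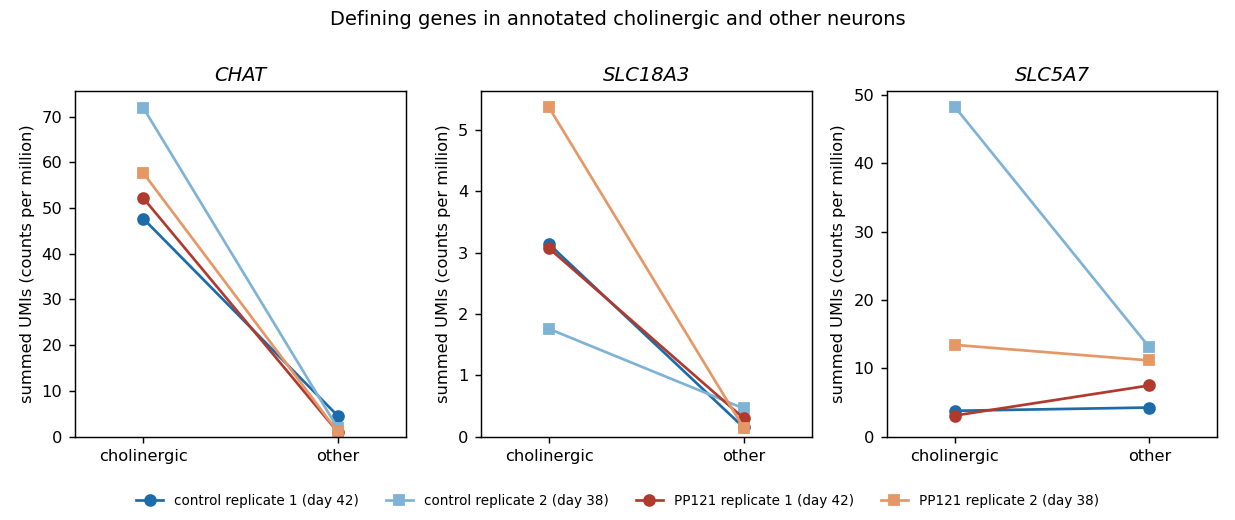
CHAT, SLC18A3 and SLC5A7 in summed nuclei of cholinergic-annotated and other neurons, on linear axes of CPM, with a line joining the 2 sums of each of the 4 samples. CHAT and SLC18A3 lie higher in the annotated neurons of every sample, whereas SLC5A7 lies higher in 2 of 4 and at 48.3 CPM only in control replicate 2.

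Across all genes, cholinergic-annotated neurons stood apart by genes known from GABA and glycine neurons, with PAX2, PAX8, SLC6A5 and GAD2 several fold higher, and by low levels of SLC17A6 and EBF2. edgeR's quasi-likelihood test on summed counts, with the sample as block and Benjamini-Hochberg adjustment at 0.05, passed 2254 of 19542 genes (11.5%), 1149 higher (5.88%) and 1105 lower (5.65%). The median log2 difference over all genes was -0.02. The annotation was called on the expression of these same nuclei, so the p-values here show how regularly a difference recurred over 4 samples and are no independent test of the identity. Of the genes that passed, 970 higher and 841 lower also kept 1 direction in all 4 samples at a mean of at least 10 CPM. Single samples weighed on the counts, which were 604 higher and 458 lower without PP121 replicate 1, 657 and 616 without control replicate 2, and 712 and 637 without control replicate 1.

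PAX2 and PAX8 are paired-box factors known from inhibitory interneurons of the spinal cord and hindbrain. PAX2 stood at 926, 906, 1135 and 1053 CPM in cholinergic-annotated neurons and at 301, 157, 170 and 131 CPM in other neurons. Its log2 difference was 2.46 ± 0.16 (SE; adjusted p = 4.92e-07, edgeR). PAX8 stood at 615, 425, 618 and 321 CPM against 148, 39.2, 41.7 and 13.02 CPM, a log2 difference of 3.36 ± 0.28 (adjusted p = 3.49e-06, edgeR). Neither gene overlapped between the groups, and in both genes control replicate 1 had the highest level in other neurons. PAX8-AS1 (log2 difference 3.21) is transcribed antisense from within PAX8 on chromosome 2. The strand setting of the counting is not given in the sources used here, so reads of this pair may not be separable.

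SLC6A5, the glycine transporter of glycinergic nerve endings, stood at 813, 1077, 1277 and 1200 CPM against 210, 133, 195 and 148 CPM. The log2 difference was 2.67 ± 0.14 (adjusted p = 1.21e-07, edgeR), with no overlap. At 2000 UMIs, SLC6A5 was detected in 72.5% of cholinergic-annotated neurons, 19.3% of other neurons and 1.78% of mesenchymal nuclei. The same 3 shares were 71.9%, 22.2% and 1.89% for PAX2 and 60.8%, 9.33% and 0.334% for PAX8. All these genes were thus far more widely detected in the annotated nuclei than CHAT itself.

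PLD5, a phospholipase D family member without known catalytic activity, had the largest rise after CHAT. It stood at 1583, 1253, 1477 and 1155 CPM against 269, 83.1, 101 and 38.05 CPM, a log2 difference of 3.76 ± 0.26 (adjusted p = 5.74e-07, edgeR). TRHDE, the ectoenzyme that degrades thyrotropin-releasing hormone, stood at 302, 125, 209 and 87.2 CPM against 59.9, 13.2, 25.3 and 18.8 CPM (log2 difference 2.72 ± 0.14). Both replicates of day 42 had more TRHDE than both of day 38 within the annotated neurons.

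SV2C, a synaptic vesicle glycoprotein, stood at 146, 136, 186 and 149 CPM against 46.6, 18.0, 26.4 and 16.3 CPM (log2 difference 2.54 ± 0.19). SAMD5, which encodes a sterile alpha motif protein, stood at 472, 479, 593 and 428 CPM against 80.5, 60.1, 101 and 75.4 CPM. Its log2 difference of 2.65 ± 0.09 (adjusted p = 1.43e-09, edgeR) had one of the smallest p-values of all genes. The remaining rises chosen by size were 6 non-coding transcripts with log2 differences between 2.56 (LINC01846) and 3.37 (AL591686.2). AL035446.2, AL445123.2, AL589693.1 and AL033504.1 are the others, and none of the 6 overlapped between the groups.

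The largest falls were in genes that were low in absolute level. SLC17A6, the vesicular glutamate transporter of excitatory neurons, stood at 3.92, 6.58, 10.6 and 33.5 CPM against 23.7, 47.3, 59.2 and 65.7 CPM (log2 difference -2.28 ± 0.21, adjusted p = 8.44e-06, edgeR). EBF2, a helix-loop-helix factor, stood at 3.61, 11.4, 4.71 and 17.4 CPM against 23.7, 61.3, 59.1 and 90.3 CPM (log2 difference -2.86 ± 0.18). LMX1B, a LIM-homeodomain factor, stood at 0.941, 14.04, 5.32 and 9.39 CPM against 11.8, 36.0, 44.6 and 85.2 CPM (log2 difference -2.59 ± 0.25). EBF2 did not overlap between the groups, while SLC17A6 and LMX1B did, each through 1 sample. SHOX (-3.15), NEUROD4 (-2.81), AL161908.1 (-2.76), SHOX2 (-2.74), EYA2 (-2.73) and PDPN (-2.31) were the other falls chosen by size.

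**Figure D2:**
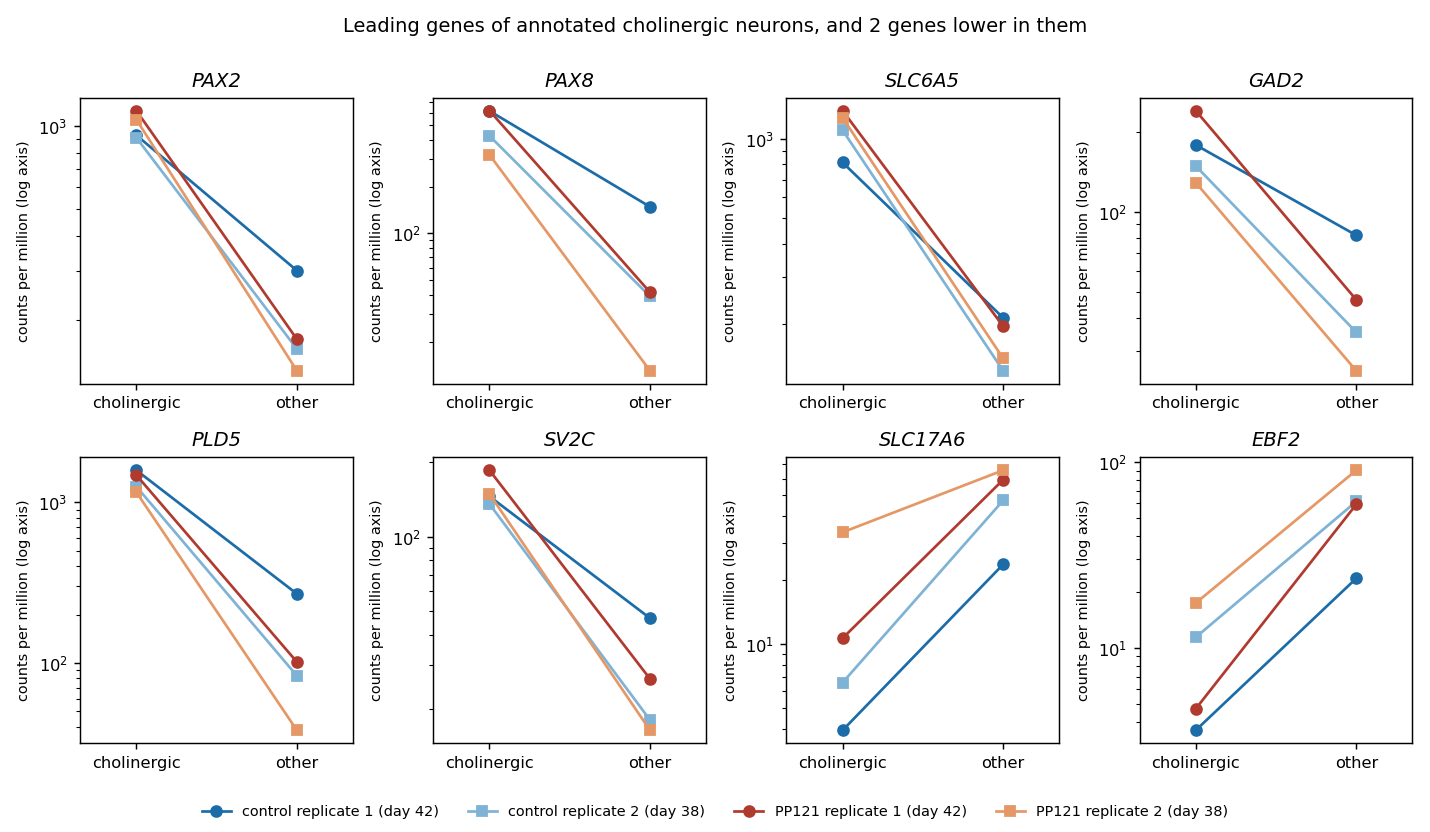
Levels of 8 genes in summed nuclei, in CPM on a log axis, with a line joining cholinergic-annotated and other neurons of each of the 4 samples. PAX2, PAX8, SLC6A5, GAD2, PLD5 and SV2C separate the groups without overlap, from 129 to 1583 CPM for GAD2 and PLD5 among others, while SLC17A6 and EBF2 are lower in the annotated neurons of every sample.

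For the acetylcholine pathway itself, only CHAT and SLC18A3 passed, both presumed genes of the label. SLC5A7, the third defining gene, did not pass (log2 difference 0.50 ± 0.38, adjusted p = 0.453, edgeR). Of the 10 other genes for choline uptake, synthesis and breakdown, 0 passed in either direction by edgeR's test. Of all genes 11.5% passed, so a count of 0 of 10 says little about the pathway. The median log2 difference of all 13 pathway genes was 0.03 beside -0.02 over all genes. That median includes the defining genes CHAT, SLC18A3 and SLC5A7, so it is partly set by the grouping and does not describe the rest of the pathway. The 10 other genes lay on both sides of the all-gene median, from -0.69 (PRIMA1) to 0.24 (COLQ). ACHE, which splits acetylcholine, stood at 5.96, 12.3, 6.75 and 9.39 CPM against 11.4, 10.2, 10.6 and 6.94 CPM (log2 difference -0.41 ± 0.23, adjusted p = 0.294, edgeR). SLC44A1, a ubiquitous choline transporter, differed by 0.03 ± 0.12 and CHKA, choline kinase, by -0.03 ± 0.09 on the log2 scale.

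Among acetylcholine receptors the muscarinic pair CHRM2 and CHRM3 moved in opposite directions. CHRM2 stood at 331, 271, 365 and 482 CPM against 215, 208, 242 and 280 CPM, higher in 4 of 4 samples (log2 difference 0.59 ± 0.08, adjusted p = 0.000163, edgeR), with overlapping ranges. CHRM3, the receptor of smooth muscle and gland contraction and secretion, stood at 37.2, 40.8, 42.2 and 41.6 CPM against 68.6, 52.6, 78.2 and 87.4 CPM. It was lower without overlap (log2 difference -0.79 ± 0.11, adjusted p = 0.000349, edgeR). Of 10 tested nicotinic subunits of 16, 1 fell, CHRNA5 (-0.53 ± 0.12), and 0 rose, against 5.65% and 5.88% of all genes, with a list median of -0.22.

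The 3 genes of GABA synthesis and vesicle loading rose, against 5.88% of genes tested, with a median log2 difference of 1.71 beside -0.02 over all genes. GAD2 stood at 178, 149, 240 and 129 CPM against 81.7, 35.3, 46.8 and 25.3 CPM (log2 difference 1.91 ± 0.17, adjusted p = 6.19e-06, edgeR). GAD1, the second GABA-synthesizing enzyme, stood at 52.1, 75.0, 87.8 and 96.6 CPM against 40.7, 18.2, 34.9 and 19.2 CPM (log2 difference 1.37 ± 0.23). SLC32A1, which loads GABA and glycine into vesicles, stood at 22.1, 18.4, 19.9 and 18.8 CPM against 10.6, 4.36, 4.89 and 3.04 CPM (log2 difference 1.71 ± 0.22). None of the 3 overlapped between the groups.

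The GAD2 level of annotated nuclei without a CHAT UMI overlapped that of nuclei with one. GAD2 stood at 186, 129, 236 and 149 CPM in cholinergic-annotated nuclei with a CHAT UMI and at 176, 159, 230 and 104 CPM in those without. It stood at 86.9, 32.6, 47.3 and 24.4 CPM in other neurons without a CHAT UMI. A GAD2 UMI was present in 66.3%, 50.5%, 69.2% and 59.3% of the annotated nuclei with a CHAT UMI, whereas an SLC17A6 UMI was present in 2.44%, 6.45%, 3.14% and 11.1% of them. CHAT and GAD2 were thus detected in the same nuclei.

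Genes of the other transmitters fell or did not pass, where 5.65% of all genes fell. Of 7 tested nitrergic genes 1 fell, ADCYAP1 (log2 difference -2.89 ± 0.58), a peptide of inhibitory motor neurons, and NOS1 at 2.98, 5.27, 1.64 and 14.8 CPM against 4.62, 5.16, 9.37 and 8.83 CPM did not pass (adjusted p = 0.276, edgeR). Of 4 glutamatergic genes only SLC17A6 passed, and of 4 serotonergic genes only DDC (-2.42 ± 0.70), the decarboxylase shared by serotonin and catecholamine synthesis. Of 2 tested catecholaminergic genes 0 passed. Of 9 tested neuropeptide genes 2 fell, TAC1 (-1.90 ± 0.22), the precursor of substance P and a companion of acetylcholine in excitatory motor neurons, and SCG2 (-1.78 ± 0.24). Within the GABAergic identity TAC1 turned to 0.15 on the log2 scale. VIP had 0 UMIs in every sum, which allows at most 3 UMIs per sum.

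Transcription factors linked to cholinergic or enteric neurons changed in both directions. Of 16 tested of 24, GBX1 rose (log2 difference 0.35 ± 0.09) and 6 fell, against 5.88% and 5.65% of all genes, with a list median of -0.16. Within the GABAergic identity 3 rose and 2 fell of 13 tested, against 3.02% and 3.22% of all genes in that fit. The falls in the whole comparison were BNC2, PHOX2A, CASZ1, MEIS1, ETV1 and FOXP1. MEIS1, a homeodomain factor of the enteric lineage, stood at 195, 293, 209 and 479 CPM against 351, 574, 502 and 691 CPM (-0.91 ± 0.10, adjusted p = 3.21e-05, edgeR). ISL1, LHX3, LHX8, HAND2 and OLIG2 were too low to be tested. RET, the GDNF receptor of enteric progenitors and neurons, stood at 1.41, 2.63, 1.02 and 2.68 CPM and did not pass (0.11 ± 0.43, adjusted p = 0.919, edgeR).

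Release machinery and maturity genes were expressed in both groups with differences in both directions. Of 22 vesicle genes 4 rose and 2 fell, against 5.88% and 5.65% of all genes (list median 0.03 beside -0.02). SV2C, described above, was the largest of the rises (log2 difference 2.54). SYN3 stood at 781, 603, 661 and 776 CPM against 325, 333, 427 and 546 CPM (log2 difference 0.82 ± 0.10), RIMS1 differed by 0.53 ± 0.08, and SYT4 and RAB3A were lower by edgeR's test (-0.57 ± 0.16 and -0.75 ± 0.18). Of 15 neuronal maturity genes TUBB3, MAP2, INA, DCX and RBFOX3 rose, with RBFOX3 (0.81 ± 0.11) the largest of the 5, and NEFL, NEFM, UCHL1 and GAP43 fell, against the same shares of all genes (list median 0.08). The 2 neurofilament genes of that list that fell, NEFL (-0.88 ± 0.17) and NEFM (-0.52 ± 0.10), overlapped between the groups.

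Of 12 tested receptors for neurotrophic factors and cytokines 4 fell and 0 rose, against 5.65% and 5.88% of all genes (list median -0.34 beside -0.02). NTRK3, the neurotrophin-3 receptor, stood at 65.6, 51.3, 60.6 and 77.8 CPM against 148, 145, 178 and 124 CPM (log2 difference -1.28 ± 0.11, adjusted p = 7.41e-06, edgeR), without overlap. GFRA1, the GDNF co-receptor, differed by -1.37 ± 0.16, IL6ST by -0.42 ± 0.12 and EDNRB, the endothelin receptor of enteric progenitors, by -2.28 ± 0.63 at under 3 CPM.

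Markers of other cell types were low in both groups. Summed over 10 progenitor and glial markers the level was 21.4 to 38.3 CPM in cholinergic-annotated neurons and 41.1 to 50.04 CPM in other neurons, with SOX2 (-0.83) and FOXD3 (-2.20) lower. Over 10 mesenchymal markers it was 38.7 to 62.8 against 19.6 to 64.7 CPM, with ACTA2 higher (1.27) and PDGFRB lower (-1.56). Over 6 epithelial markers it was 8.8 to 15.5 against 9.95 to 12.1 CPM, with 0 of 2 tested passing, and over 7 cycling markers 20.3 to 36.4 against 29.1 to 64.7 CPM, with CENPF lower (-0.94). No marker was at 0 in all the annotated sums. S phase was assigned to 30.6%, 31.7%, 22.5% and 17.2% of annotated and 37.7%, 39.1%, 26.7% and 22.7% of other neurons. The part of these differences in the gene results was not tested, apart from the fit without nuclei that hold a progenitor marker, which passed 1014 higher and 903 lower genes.

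The identity overlapped strongly with the deposited GABAergic identity. Among cholinergic-annotated neurons 71.4%, 79.8%, 92.3% and 71.0% were also annotated as GABAergic, compared with 31.9%, 13.03%, 22.1% and 11.2% of other neurons. The mean difference was 59.0 percentage points, higher in 4 of 4 samples. An exact two-sided sign-flip permutation test gave a p of 1 in 8, the smallest that 4 samples allow (adjusted p = 0.156 over 5 identities), so this design cannot pass 0.05.

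Glutamatergic, nitrergic and catecholaminergic identities were rarer in the annotated neurons of all 4 samples. A glutamatergic identity was carried by 14.6%, 25.4%, 24.2% and 54.8% of cholinergic-annotated and 30.3%, 49.1%, 42.1% and 67.4% of other neurons, a mean difference of -17.5 points. The nitrergic identity was carried by 7.55%, 7.14%, 8.13% and 7.53% against 25.8%, 21.6%, 24.4% and 10.2% (-12.9 points). For the catecholaminergic identity the shares were 10.3%, 23.0%, 23.4% and 43.0% against 22.1%, 41.3%, 40.8% and 43.9% (-12.1 points). In PP121 replicate 2 these 2 differences were small, -2.69 points (nitrergic) and -0.907 points (catecholaminergic), with overlapping intervals. All 3 identities were tested in the same way. Each gave the same smallest exact permutation p (adjusted p = 0.156). No single further identity was required: 14.3%, 5.56%, 1.75% and 1.08% of the annotated nuclei, 110, 14, 11 and 1 in number, carried none.

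The serotonergic identity differed between treatments. It was carried by 15.2% and 11.9% of cholinergic-annotated neurons in control but 60.1% and 32.3% in PP121, whereas other neurons had 29.4% and 21.1% in control and 28.7% and 20.8% in PP121. The annotated neurons were below the others in both control samples and above them in both PP121 samples, and over all samples the mean difference of 4.88 points gave p = 0.75 (exact sign-flip permutation test), turning to -3.96 points without PP121 replicate 1. TPH2, the neuronal enzyme of serotonin synthesis, stood at 2.98, 0.439, 1.64 and 0 CPM in the annotated neurons, and TPH1 at 2.82, 2.19, 6.14 and 4.03 CPM. The 2 treatments have separately named neuron subtypes, and the part of a separate annotation in this difference was not tested.

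**Figure D3:**
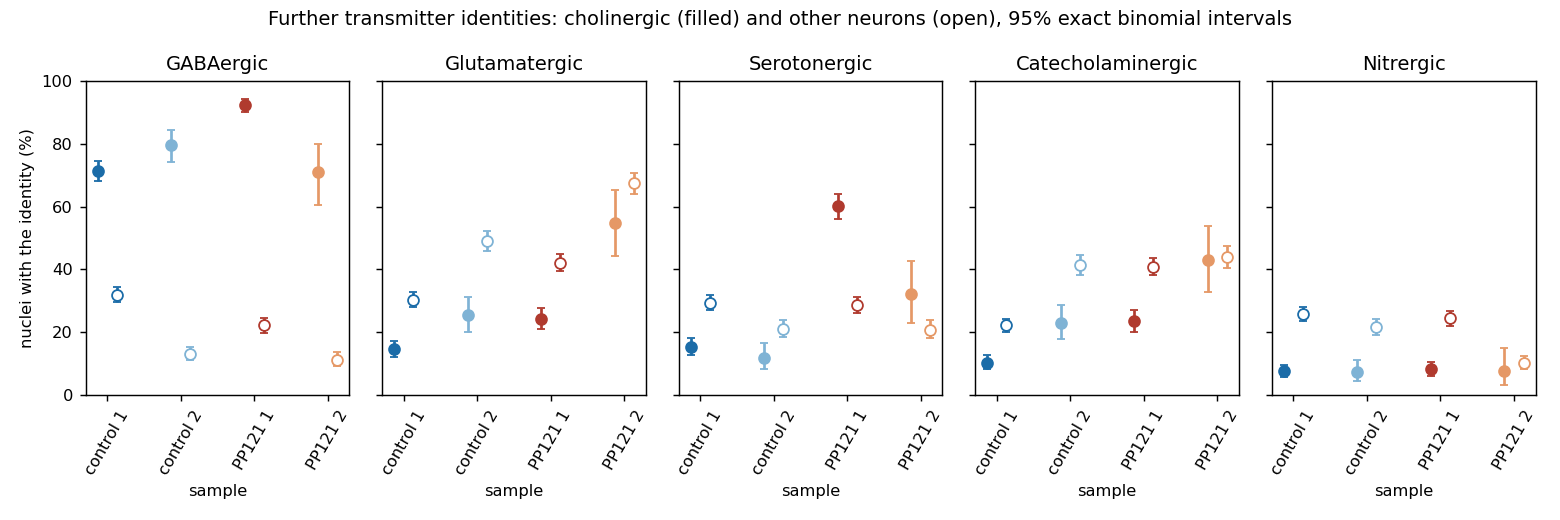
Share of nuclei that carry each further transmitter identity, in percent, for cholinergic-annotated (filled) and other neurons (open) of the 4 samples, with 95% exact binomial intervals. The GABAergic identity lies at 71.0 to 92.3% in annotated neurons and at 11.2 to 31.9% in other neurons, and the serotonergic identity lies on opposite sides in the control and PP121 samples.

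The difference was also sought within GABAergic neurons alone, comparing nuclei with both identities against GABAergic nuclei without the cholinergic identity. There edgeR's test passed 941 of 15076 genes (6.24%), 455 higher (3.02%) and 486 lower (3.22%), and 678 of them were among the 2254 of the whole comparison (30.1% of those and 72.1% of these 941), 670 in the same direction. PAX8 (2.05 ± 0.15), PLD5 (2.54 ± 0.12), SAMD5 (2.10 ± 0.08), PAX2 (1.29 ± 0.09) and SLC6A5 (1.04 ± 0.08) were still higher on the log2 scale. Of the 3 GABA genes GAD2 (0.48 ± 0.10, adjusted p = 0.00592, edgeR) passed, while GAD1 (-0.28 ± 0.13) and SLC32A1 (0.47 ± 0.18) did not. The glutamate transporter gene SLC17A6 (-0.48 ± 0.50) did not pass either. Among nuclei with no further identity in either group, a fit that lacks the annotated neurons of PP121 replicate 2, 278 of 13407 genes passed (2.07%), with PAX2 at 2.12 ± 0.27, SLC6A5 at 2.71 ± 0.29 and GAD1 at -0.96 ± 1.00.

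Grouping the same annotated enteric neurons by CHAT counts, without the cholinergic label, gave the same leading genes at smaller size. CHAT is a presumed gene of the label, and 81.3% to 95.8% of neurons with a CHAT UMI carried it. The shared genes are thus no separate support for the identity. Neurons with at least 1 CHAT UMI against none passed 641 of 18661 genes (3.43%), 386 higher (2.07%) and 255 lower (1.37%), and 591 of them were shared with the annotation-based result, all in the same direction (92.2% of 641 and 26.2% of 2254). On the log2 scale PAX2 differed by 1.64 ± 0.16, PAX8 by 1.97 ± 0.19, SLC6A5 by 1.64 ± 0.11, GAD2 by 1.27 ± 0.15 and SLC17A6 by -1.88 ± 0.22. SLC5A7 had 23, 106, 12 and 2 UMIs in annotated nuclei with a CHAT UMI, most of them in control replicate 2, and is described by these counts only. Nuclei with a CHAT UMI were deeper (in control replicate 1 a median of 9311.5 against 7071 UMIs), so this grouping is tied to depth.

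Leaving out all nuclei with a CHAT UMI from both groups gave PAX2 2.45 ± 0.14, PAX8 3.39 ± 0.25, SLC6A5 2.70 ± 0.14 and GAD2 1.92 ± 0.17 on the log2 scale. The annotated nuclei without a CHAT UMI thus carried these 4 leading genes at higher levels than the other neurons. The study's methods impute missing gene values, so such nuclei may have been labelled through the values of other genes. This fit is therefore a description and no separate support for the identity. Leaving out CHAT-positive nuclei removed 7 of the 8 annotated nuclei rich in SLC5A7 and 0 of the 15 rich other nuclei, so SLC5A7 is not compared in this fit.

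By deposited subtype the identity was concentrated in a few clusters. In control, 89.1% and 89.4% of EN 3 nuclei were cholinergic-annotated, and EN 3 held 46.7% and 46.8% of all annotated nuclei. EN 2 followed with 46.8% and 32.7% and EN 7 with 35.6% and 66.7% (9 nuclei in replicate 2), while EN 6 had 3.97% and 1.94%. In PP121, EN C had 95.8% and 88.9% and held 40.03% and 34.4% of annotated nuclei, and EN G had 97.0% of 99 nuclei in replicate 1 and was a single nucleus in replicate 2. EN F had 0.741% and 0 of 182 nuclei, which the exact 95% interval bounds at 2.01%.

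Subtypes rich in CHAT and subtypes rich in SLC5A7 were not the same. EN 3 had 51.4 and 73.8 CPM of CHAT, with SLC5A7 at 0 and 2.51 CPM and SLC6A5 at 821 and 1310 CPM. EN C had 64.2 and 76.9 CPM of CHAT, with SLC5A7 at 0.476 and 0 CPM. In contrast EN 8 had 2.69 and 2.07 CPM of CHAT with SLC5A7 at 56.5 and 24.9 CPM. EN 4 had CHAT at 6.15 and 10.4 CPM, SLC5A7 at 15.7 and 97.5 CPM and SLC17A6 at 140 and 123 CPM, and EN I had CHAT at 2.92 and 14.1 CPM with SLC5A7 at 67.1 and 45.2 CPM. These subtypes were picked after their values were seen and are described without a test. A subtype's clustering used the same genes.

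**Figure D4:**
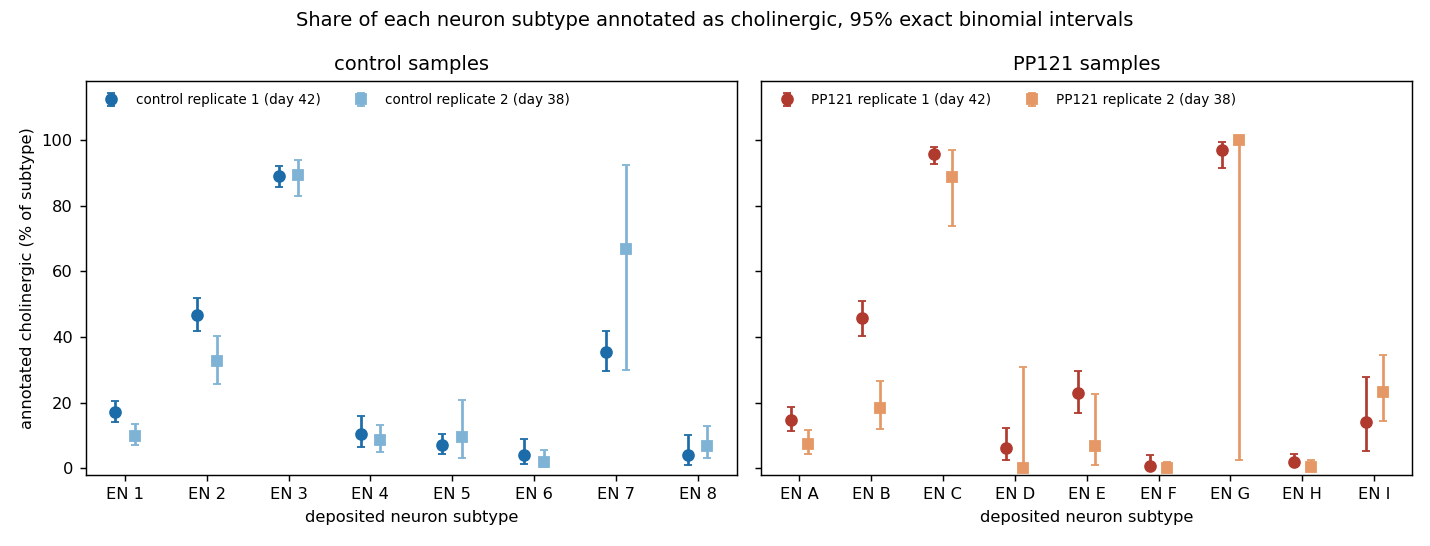
Share of each deposited neuron subtype annotated as cholinergic, in percent, by sample with 95% exact binomial intervals, for EN 1 to EN 8 in the control and EN A to EN I in the PP121 samples. EN 3 (89.1 and 89.4%) and EN C (95.8 and 88.9%) stand above the other subtypes with more than 1 nucleus in both replicates.

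The next comparison asked whether PP121 changed how many neurons were cholinergic-annotated. The share was 33.6% (95% exact interval 31.7 to 35.6) and 20.4% (18.2 to 22.8) in control and 33.2% (31.1 to 35.4) and 10.2% (8.28 to 12.3) with PP121. The means of 27.0% ± 9.33 and 21.7% ± 16.3 (SD, n = 2 each) differed by -5.32 percentage points, which was less than the spread within each treatment (exact permutation p = 0.667, where 0.333 is the smallest possible). Within day 42 the difference was -0.383 points and within day 38 it was -10.3 points. The 2 day 42 samples were both above the 2 day 38 samples. Without PP121 replicate 2 the difference turned to 6.21 points and without control replicate 1 to 1.27 points.

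Detection of CHAT gave the same order by day at 2000 UMIs and without thinning, but not in 2 other settings. At 2000 UMIs a CHAT UMI was present in 3.58% and 3.05% of enteric neurons in control and 3.16% and 1.13% with PP121. The difference of -1.17 points was not detectable over the spread (exact permutation p = 0.667), with -0.417 points at day 42 and -1.92 points at day 38. It was -0.151 points without PP121 replicate 2 and -2.18 points without PP121 replicate 1. Without thinning the shares were 11.04%, 8.56%, 9.16% and 3.38%. At 4000 UMIs they were 6.67% and 5.37% in control and 5.21% and 1.68% with PP121. For a UMI of CHAT, SLC18A3 or SLC5A7 at 2000 UMIs they were 4.50% and 4.81% against 4.05% and 2.26%. In these 2 settings both controls lay above both PP121 samples (exact permutation p = 0.333 each, the smallest possible). PP121 replicate 2 was lowest in all these measures.

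**Figure D5:**
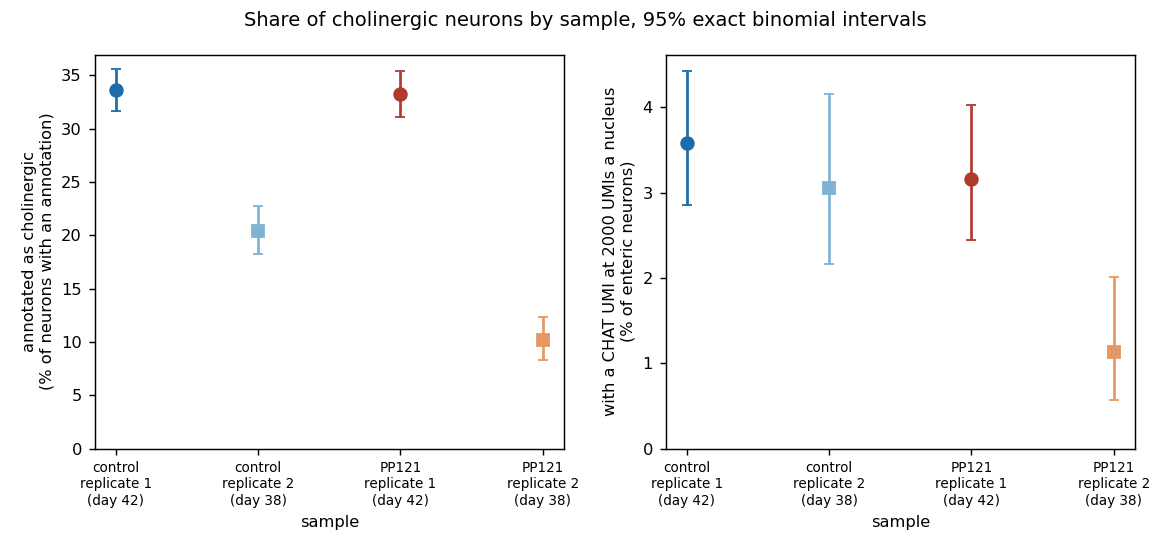
Share of enteric neurons annotated as cholinergic and share with a CHAT UMI at 2000 UMIs per nucleus, in percent, by sample with 95% exact binomial intervals. The annotated share lies at 33.6 and 33.2% in the day 42 samples and at 20.4 and 10.2% in the day 38 samples of control and PP121.

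Within the cholinergic-annotated neurons, no gene passed the unblocked test of PP121 against control. edgeR's quasi-likelihood test on summed counts passed 0 of 16123 genes (0.0%), with 1221 at an unadjusted p under 0.05, and DESeq2 passed 5 higher and 8 lower. The smallest adjusted p-values belonged to MT-CO3, MT-ATP6 and NKAIN2. MT-CO3, a mitochondrially encoded oxidase subunit, stood at 78.9 and 117 CPM in control and 16.4 and 12.1 CPM with PP121 (log2 difference -2.66 ± 0.27, adjusted p = 0.0805, edgeR). NKAIN2, a partner of the sodium pump, stood at 94.8 and 98.3 CPM in control and 238 and 247 CPM with PP121 (1.34 ± 0.15, adjusted p = 0.0836, edgeR). Both separate the treatments without overlap. Without PP121 replicate 1 the test passed 153 higher and 31 lower genes, and without control replicate 2 it passed 32 and 9, the lone sample being assumed to vary like the pair of the other treatment.

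Replicate number marks day here, and with replicate as a block the test passed 85 genes (0.527%), 66 higher (0.409%) and 19 lower (0.118%). NKAIN2 (1.34 ± 0.13, adjusted p = 0.00587, edgeR) was among those higher. The falls chosen by size were all mitochondrial: MT-ND3 (-2.89 ± 0.36), MT-ATP6 (-2.60 ± 0.27), MT-CO3 (-2.52 ± 0.23), MT-CYB (-2.47 ± 0.33) and MT-CO2 (-2.14 ± 0.29). In nuclei such transcripts are carried over from the cytoplasm. The mean mitochondrial share of UMIs was 0.0553%, 0.0652%, 0.0199% and 0.0114% in cholinergic-annotated neurons and 0.0314%, 0.0284%, 0.0174% and 0.0250% in other neurons. Its part in the 5 falls was not tested.

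The rises chosen by size were PRDM6, GRIK1, AC128707.1, AC079298.3 and ADAM28. GRIK1, a kainate receptor subunit, stood at 33.3 and 63.6 CPM in control and 80.9 and 869 CPM with PP121 (log2 difference 2.53 ± 0.44, adjusted p = 0.0432, edgeR with replicate block). In PP121 replicate 2, 5 nuclei of subtype EN I held 465 of its 648 UMIs (71.8%), so this value rests on very few nuclei. PRDM6, a repressor of the PR domain family, stood at 1.57, 0.439, 9.21 and 47.0 CPM (3.80 ± 0.65), with all of its 45 and 35 UMIs in the PP121 samples found in at most 5 nuclei each. ADAM28 stood at 4.71, 9.65, 18.8 and 28.2 CPM (1.82 ± 0.31).

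The genes that define or lead the annotated neurons did not pass with PP121 in either fit. With the block, CHAT differed by -0.04 ± 0.18, SLC6A5 by 0.42 ± 0.13, PAX2 by 0.26 ± 0.10, PAX8 by -0.17 ± 0.13 and GAD2 by 0.18 ± 0.16 on the log2 scale. Of the 18 gene lists 1 member passed with the block, where 0.527% of all genes passed, so the count is no result about the lists. It was RIMS2, an active-zone scaffold, at 590 and 746 CPM in control and 864 and 1234 CPM with PP121 (0.64 ± 0.11, adjusted p = 0.0429, edgeR). In other neurons of the same samples the unblocked edgeR test also passed 0 of 19846 genes (0.0%), with 2601 at an unadjusted p under 0.05 and 87 higher and 23 lower by DESeq2. With the block it passed 3258 (16.4%). The 2 groups share their samples and differ in nuclei number, and with equal numbers of nuclei the other neurons passed 968 genes (5.91%) with the block.

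A test of the difference between the 2 PP121 effects, the interaction of treatment with cholinergic identity, passed 7 of 19542 genes (0.0358%), all with a lower response in the annotated neurons, by edgeR's quasi-likelihood test. The groups differ in nuclei number (93 against 822 in PP121 replicate 2), and with equal numbers of nuclei 1 gene passed, CDH12. TMEFF2, a transmembrane protein with follistatin-like domains, stood at 30.1, 69.3, 46.3 and 75.1 CPM in cholinergic-annotated neurons and 36.0, 55.4, 133 and 185 CPM in other neurons. Its interaction was -1.46 ± 0.21 on the log2 scale (adjusted p = 0.029, edgeR). CDH12, a cadherin, stood at 289, 375, 234 and 216 CPM against 198, 350, 395 and 495 CPM (-1.27 ± 0.18). RNF220, a ubiquitin ligase, stood at 34.4, 66.3, 19.4 and 44.3 CPM against 39.8, 46.5, 63.3 and 115 CPM (-1.71 ± 0.25).

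In other neurons both PP121 samples lay above both controls for TMEFF2, CDH12 and RNF220, whereas in cholinergic-annotated neurons CDH12 was lower in both PP121 samples and the other 2 genes overlapped. NELL2, a secreted neural protein (-1.40 ± 0.20), and AC098617.1 (-1.59 ± 0.24) also passed. ABCA12 and GALNT13 passed but fell outside the size rule and were named after their values were seen. ABCA12, a lipid transporter, had 57, 42, 5 and 1 UMIs in cholinergic-annotated neurons and 30, 27, 57 and 44 UMIs in other neurons, so its fitted value of -4.68 ± 0.60 rests on few counts. It also rests on few nuclei, since 5 annotated nuclei held 29 of the 57 UMIs in control replicate 1 (50.9%). In control replicate 2, 5 nuclei held 38 of the 42 (90.5%). Leaving out any 1 sample raised the count to between 42 and 107 lower and 7 and 62 higher responses. GALNT13, which starts mucin-type glycans, stood at 171, 188, 134 and 137 CPM against 130, 154, 196 and 228 CPM (-0.96 ± 0.15).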

How the data were processed

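Single-nucleus RNA sequencing covered 4 samples, and the deposited values are UMI counts per gene and nucleus with metadata that give class, subtype, transmitter identities, phase and day. The submitters' processing notes name Cell Ranger, Seurat 4.0.4 and GRCh38, while the study's methods name kallisto and bustools. The authors filtered nuclei by genes, UMIs and mitochondrial percent. The deposited percent columns give mitochondrial and ribosomal shares of counts. How the cholinergic identity was called is not given in the sources used here, and a rule is stated for nitrergic neurons only. The study's methods impute missing gene values after the cell classes were annotated and use imputed values downstream unless otherwise stated. Whether the cholinergic identity was called on imputed values is not given. Each nucleus took its sample from the matrix that holds its barcode, and the UMI total of all 25306 nuclei equalled the deposited total.

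Counts were summed per sample and identity and tested with edgeR 4.0.16 in R 4.3.3 (TMM, filterByExpr, quasi-likelihood, Benjamini-Hochberg at 0.05), with DESeq2 1.42.0 as an alternative; the standard error is the absolute log2 difference over the square root of F. The sample was the block between identities. The treatment test had no block, and the replicate block was an alternative. Replicate numbers pair the samples because they mark day (42 and 38) in both treatments, and deviations of same-numbered samples correlated at 0.168 over 19542 genes in cholinergic-annotated and 0.416 in other neurons. Printed CPM use TMM-scaled library sizes; those by subtype or CHAT status and the summed cell type markers use plain totals. Shares carry 95% Clopper-Pearson intervals, and groups were compared by exact permutation. Depth was equalized by thinning nuclei to 2000 UMIs. No doublets had been marked in the deposited metadata; each sample's 6% of nuclei with the highest Scrublet scores were removed as an alternative.

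Named genes were the 15 largest rises and 10 largest falls (5 and 5 for PP121 and the interaction) that passed at a mean of at least 10 CPM in the same direction in every sample, or the 3 smallest p-values where none passed, plus members of 18 gene lists; items withheld here, 1 of the falls among them, are not reported. The members and lists were chosen with earlier results of these data known. The fits were tested on simulated data. Of changes of 1 on the log2 scale, the fit between identities recovered 81.6% and the interaction 29.3%. The PP121 fit in cholinergic-annotated neurons recovered 43.9% without and 54.7% with the replicate block. Calls of unchanged genes at an adjusted p under 0.05 were 21 of 195 between identities and 13 of 117 for the interaction. For PP121 they were 23 of 149 without and 14 of 154 with the block.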

Additional observations from a re-analysis of the deposited data

Results flagged for a closer look

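The serotonergic identity stood on opposite sides of other neurons in the 2 treatments. Cholinergic-annotated neurons were 21.4 percentage points above other neurons on average in the PP121 samples and -11.7 points from them in the control samples, with both samples of each treatment on the same side. The difference between treatments was not tested.

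For 7 genes the response to PP121 differed between cholinergic-annotated and other neurons by the interaction term of edgeR's quasi-likelihood test, each with an adjusted p under 0.05. The log2 interaction was -4.68 for ABCA12, -1.71 for RNF220, -1.59 for AC098617.1, -1.46 for TMEFF2, -1.40 for NELL2, -1.27 for CDH12 and -0.96 for GALNT13. In other neurons all 7 genes were higher in both PP121 samples than in both controls. In cholinergic-annotated neurons ABCA12, CDH12 and GALNT13 were lower in both PP121 samples than in both controls, and the other 4 overlapped. The ABCA12 value rests on few counts in few nuclei, with 38 of 42 UMIs of control replicate 2 in 5 annotated nuclei. With equal numbers of nuclei in both groups 1 of the 7 passed, CDH12.

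CHAT was also detected in nuclei that entered no comparison. At 2000 UMIs a CHAT UMI was found in 6 of 235 enteric neurons without a transmitter annotation (2.55%, 95% exact interval 0.943 to 5.47) and in 24 of 1511 nuclei without a cell class that reached that depth (1.59%, interval 1.02 to 2.35), compared with 0.394% of other neurons. Enteric neurons without a transmitter annotation had a median of 13351 UMIs before thinning.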

How the results depend on the processing

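Between cholinergic-annotated and other neurons the counts of 1149 higher and 1105 lower genes fell to 226 and 137 without the sample block, 427 and 335 with a block of sample by subtype, 189 and 89 among nuclei without another identity and 386 and 255 by CHAT UMI. They were 455 and 486 within the GABAergic identity (chosen after seeing the data). DESeq2 gave 665 lower and equal nuclei numbers 716 lower. Leaving out 1 sample gave 604 to 1295 higher and 458 to 1118 lower.

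For PP121 in cholinergic-annotated neurons the counts of 0 and 0 became 66 higher and 19 lower with the replicate block, 5 and 8 with DESeq2, 41 and 8 with DESeq2 and the block, 207 and 80 without the filter on low counts, and 1 and 2 without progenitor markers. With at least 1 CHAT UMI and the replicate block (added later) they were 28 and 6. Leaving out 1 sample gave 0 to 153 higher and 7 to 31 lower. In other neurons the counts of 0 and 0 became 1720 and 1538 with the replicate block, 87 and 23 with DESeq2, 645 and 323 with equal numbers and the block (added later), and 1 higher with equal numbers, and leaving out 1 sample gave 0 to 1011 and 0 to 750. The replicate block leaves the share differences at -5.32 and -1.17 points. For the interaction, 0 higher and 7 lower became 35 and 80 without the filter and 1 lower with equal numbers, and leaving out 1 sample gave 7 to 62 and 42 to 107.

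The share difference between treatments ran from -16.9 to 6.21 points when 1 sample was left out, and turned to 1.27 without control replicate 1. The serotonergic difference ran from -3.96 to 11.2 points. Among nuclei without another identity the log2 difference turned for CHRM2 (-0.0204), GAD1 (-0.96), GAP43 (0.10), NEFL (0.28), NEFM (0.61), NEUROD4 (0.19) and UCHL1 (0.51). It turned within the GABAergic identity for GAD1 (-0.28) and TAC1 (0.15), with the subtype block for GBX1 (-0.21) and without CHAT-positive nuclei for SLC5A7 (-1.98), which that selection itself sets. The other causes were not tested. Of 979 values for 66 named genes, 187 kept direction but no longer passed. Another 778 stayed on the same side of the threshold, a count in which direction was not checked where neither fit passed.

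Depth limits SLC18A3, with at most 20 UMIs a sum, and PP121 replicate 2, with 93 annotated nuclei. With 2 samples a treatment, permutation cannot pass 0.05. The identity-based results share their nuclei with the annotation.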

Other observations

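The following genes were looked up after the values had been seen, so their values are a description. LHX1, a LIM-homeodomain factor of inhibitory interneurons, stood at 84.9, 88.6, 92.1 and 115 CPM in cholinergic-annotated neurons (control replicates 1 and 2, then PP121 replicates 1 and 2) and at 58.4, 35.6, 49.2 and 35.7 CPM in other neurons, without overlap (log2 difference 1.03 ± 0.14). Its relative LHX5 differed by 0.89 ± 0.14. SKOR2, a corepressor of Purkinje cells and other inhibitory neurons, stood at 16.5, 12.7, 17.2 and 8.05 CPM against 5.59, 1.15, 3.59 and 0.434 CPM (2.25 ± 0.29). LBX1, a factor of dorsal hindbrain and spinal neurons, differed by 0.44 ± 0.15 and did not pass (adjusted p = 0.0796, edgeR's quasi-likelihood test), and PTF1A was at under 3 CPM in every sum. SLC6A9, the other glycine transporter, differed by 0.20 ± 0.35.

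With the replicate block, 2 genes of sterol metabolism were lower with PP121 in the cholinergic-annotated neurons. HMGCS1, an enzyme of sterol synthesis, stood at 378 and 383 CPM in control and 157 and 220 CPM with PP121 (log2 difference -1.05 ± 0.14, adjusted p = 0.0183, edgeR). INSIG1, a sterol-dependent regulator, stood at 47.4 and 42.6 CPM against 19.7 and 20.1 CPM (-1.21 ± 0.21). MEF2C, an activity-linked transcription factor, stood at 309 and 210 CPM against 161 and 68.4 CPM (-1.18 ± 0.16). The treatments did not overlap in any of these 3 genes, and without the block none of them passed (adjusted p 0.444 to 0.628, edgeR).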
